A study of Rattus norvegicus with 12 samples.

Results

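The genes described here encode 8 proteins that carry out or start regulated cell death: the kinases Ripk1 and Ripk3, the pore-forming effectors Mlkl and Gsdmd, and the caspases Casp4, Casp8, Casp9 and Casp12. They were chosen by symbol from pathway knowledge, and all 8 had a row among the 17268 genes of the count table. The data were RNA-seq read counts of cerebral cortex from adult male Sprague Dawley rats, in 12 libraries. The Sham group (3 libraries) had the carotid artery dissected with no clot injected, and the Model group (3 libraries) received an injected blood clot in the middle cerebral artery with no further treatment. The rt-PA group (3 libraries) received the clot and then recombinant tissue plasminogen activator, the clot-dissolving drug, 6 h later. The rt-PA+Acu group (3 libraries) received the clot, XingNaoKaiQiao acupuncture at GV26 and PC6 at 2 h, and rt-PA at 6 h. The series' design text names the left PC6 point and the methods name both sides. An acupuncture group without rt-PA was not among these libraries, so each effect of acupuncture was read on top of rt-PA. The time of tissue collection for sequencing was not given in the sources used here.

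Necroptosis is a lytic form of cell death in which RIPK1 and RIPK3 join through their RHIM motifs and RIPK3 phosphorylates MLKL, which then breaks the plasma membrane. Caspase-8 starts apoptosis below death receptors and, with its partner cFLIP, also holds RIPK1 and RIPK3 in check, while caspase-9 starts apoptosis from the mitochondrion on the Apaf1 apoptosome. In pyroptosis, inflammatory caspases such as caspase-4, the rat counterpart of mouse caspase-11, cut gasdermin D, whose freed end forms membrane pores. All of these proteins are regulated largely by cleavage, phosphorylation and assembly, none of which a read count measures.

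The counts summed to between 11678450 and 13616935 per library, so 3 counts corresponded to 0.208 to 0.262 CPM (each count scaled to the library total after TMM normalisation). One library differed from its group at a single gene, looked at after the values were seen. Model replicate 3 had the ribosomal protein gene Rpl39 at 11.7 CPM, close to the 9.17 to 11.5 CPM of Sham, whereas the other Model libraries had 60.5 and 63.2 CPM. Among the members its Casp8 was also near Sham (2.81 CPM). Its Ripk3 (6.77 CPM) lay within the range of the other Model libraries, and its Casp4 (10.2 CPM) was above them. The neuronal markers Rbfox3, Snap25, Syt1, Slc17a7, Gad1, Nefl and Map2 had a summed level of 4670 to 8190 CPM in the 12 libraries. This shows neuronal tissue and does not tell cortex from other brain regions. Summed oligodendrocyte markers ranged from 1670 CPM in Model replicate 1 to 21100 CPM in rt-PA+Acu replicate 1.

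Promoter sequence is shown for 3 of the genes: Ripk3, the member with the largest change, Ripk1, its upstream partner, and Casp12, whose groups overlapped. The pattern of Casp9 described below is not among them. The 250 bases before the transcription start were read from RefSeq (GRCr8, 5′ to 3′ along the gene's own strand). Capitals mark matches to the motifs searched.
Ripk3, chr15:33262026-33262275, minus strand: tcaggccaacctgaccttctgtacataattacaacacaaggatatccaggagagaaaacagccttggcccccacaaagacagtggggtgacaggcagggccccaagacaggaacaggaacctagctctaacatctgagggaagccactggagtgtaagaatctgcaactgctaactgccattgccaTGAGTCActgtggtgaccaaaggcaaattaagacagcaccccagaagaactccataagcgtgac
Ripk1, chr17:31077168-31077417, minus strand: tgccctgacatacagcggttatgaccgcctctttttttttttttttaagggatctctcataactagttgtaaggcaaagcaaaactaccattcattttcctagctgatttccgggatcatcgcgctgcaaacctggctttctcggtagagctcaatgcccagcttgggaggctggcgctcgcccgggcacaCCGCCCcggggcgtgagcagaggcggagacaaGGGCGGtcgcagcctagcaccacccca
Casp12, chr8:10926938-10927187, plus strand: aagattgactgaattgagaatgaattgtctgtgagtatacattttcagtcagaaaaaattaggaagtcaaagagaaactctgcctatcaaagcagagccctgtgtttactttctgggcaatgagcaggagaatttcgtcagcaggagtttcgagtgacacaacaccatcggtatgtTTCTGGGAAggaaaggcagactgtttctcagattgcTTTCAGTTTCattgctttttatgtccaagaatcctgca

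The 6 motifs were searched on both strands, and they were chosen after the sequences were seen. The Ripk3 window held 1 AP-1 element (TGANTCA), which starts 64 bases before the transcription start and was present in 6.34% of 33469 rat windows of the same length. The Ripk1 window held 2 GC boxes (GGGCGG), at 59 and 27 bases before the start, a motif found in 30.5% of windows. The Casp12 window held 1 interferon response element (in 3.41% of windows) and 1 STAT element (TTCNNNGAA, in 7.67%). The Casp9 window, 73.2% G and C against 40.4% for Casp12, held 3 GC boxes, and the Mlkl window held none of the 6 motifs. The NF-kB consensus (3.54% of windows) and the TATA box (TATAAA, 12.9%) had no match in any of the 5 windows. Windows were present in RefSeq for 5 of the 8 genes. These matches describe letters and were not tested as binding sites.

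Across the 8 genes, the clot was followed by higher transcript levels of the kinases and of 2 caspases, and the rt-PA+Acu libraries were lower than the rt-PA libraries for 4 genes. In Model against Sham, Ripk3, Casp8, Casp4 and Ripk1 were called higher, 4 of 8 members where 27.3% of 12884 tested genes were. No member was called lower, although Casp9 was lower without overlap (log2 -0.23, adjusted p = 0.0512). Counting both directions, 54% of all genes were called in that comparison, which is close to the members' share, and 5 of 8 members had groups that did not overlap, beside 63.6% of genes. The count of members was 2 without Sham replicate 2, Sham replicate 3 or Model replicate 2. In rt-PA against Model no member was called, and 0% of 12941 genes were. With acupuncture before rt-PA, Ripk3, Casp8, Mlkl and Ripk1 fell relative to rt-PA, 4 of 8 members against 17.7% of 12999 genes called lower and 34.8% called in either direction. The members called numbered 0 without rt-PA replicate 1 or rt-PA+Acu replicate 1, 1 without rt-PA+Acu replicate 2, 2 without rt-PA replicate 3 and 6 without rt-PA+Acu replicate 3. Against Sham, the rt-PA+Acu group had Casp9 alone among the members called, and it fell (1 of 8, against 3.4% of 12775 genes called lower and 5.1% in all). That count was 0 without any Sham library or without rt-PA+Acu replicate 2. A call means an adjusted p under 0.05 in the edgeR quasi-likelihood test. In bulk tissue, fewer cells of a type and less RNA per cell cannot be told apart.

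**Figure D1:**
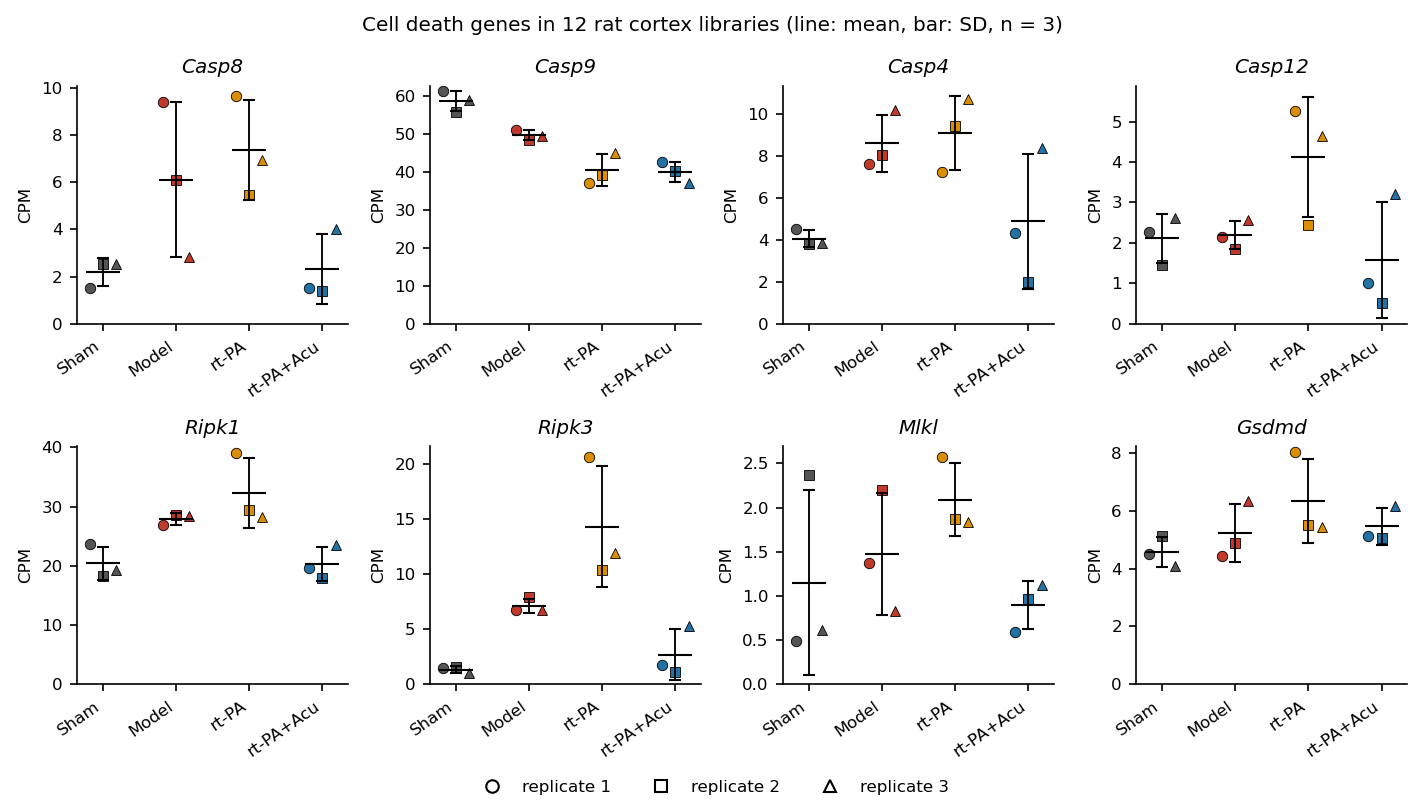
Level of each of the 8 genes (CPM, linear vertical axes from 0) in the 12 libraries by group, with a symbol for each library, a horizontal line for the group mean and a bar for the SD (n = 3). Ripk3 in the 3 rt-PA libraries sits at 10.4 to 20.6 CPM, above the 1.05 to 5.3 CPM of the rt-PA+Acu libraries, and the Casp12 libraries of every pair of groups overlap.

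The median log2 fold change of the 8 genes was 0.39 in Model against Sham, beside 0.01 over all genes tested. It was 0.27 in rt-PA against Model (all genes 0), -1.05 in rt-PA+Acu against rt-PA (all genes 0) and 0.04 in rt-PA+Acu against Sham (all genes 0.02). The rt-PA group had the highest mean level for 7 of the 8 genes, with Casp9 the exception. The share of all genes with their highest mean in rt-PA was not computed. Of these 7, only Ripk3 had rt-PA libraries apart from the Model libraries, and none was called in rt-PA against Model. Since several of these comparisons share libraries, their values stand side by side and were not correlated.

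Ripk3 encodes the kinase that commits a cell to necroptosis. In Sham it was measured at 1.45, 1.53 and 0.96 CPM (18, 20 and 11 counts), and in Model at 6.72, 7.87 and 6.77 CPM. In rt-PA it stood at 20.6, 10.4 and 11.9 CPM, and in rt-PA+Acu at 1.69, 1.05 and 5.3 CPM. The order from low to high was Sham, rt-PA+Acu, Model and rt-PA. Sham and rt-PA+Acu overlapped, while each Model library was above both and each rt-PA library above every Model library. The group means were 1.31 ± 0.308, 2.68 ± 2.29, 7.12 ± 0.652 and 14.3 ± 5.51 CPM in that order (SD, n = 3 each).

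Ripk3 was 5.39-fold higher in Model than in Sham (log2 fold change 2.43, SE 0.28, adjusted p = 0.000219). Ripk3 kept this call under all 13 settings tried, at log2 values between 2.25 and 2.54. With acupuncture added to rt-PA, Ripk3 fell 5.23-fold (log2 -2.39, SE 0.57, adjusted p = 0.0163). That call did not survive the removal of rt-PA replicate 1, the highest library (adjusted p = 0.0558), or of rt-PA+Acu replicate 1 (adjusted p = 0.0547), and the log2 value ranged from -3.37 to -2.01. In rt-PA against Model, Ripk3 was 2.01-fold higher by the mean (log2 1.01, SE 0.28, adjusted p = 0.351), which is not a call, although the libraries did not overlap, as for 15.9% of all genes. DESeq2 gave an adjusted p of 0.0708 for it. The rt-PA+Acu to Sham value was 1.03 (SE 0.61, adjusted p = 0.345), and it was 0.04 without rt-PA+Acu replicate 3, so the elevated mean rested on that library.

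In the RefSeq annotation the span of Ripk3 overlaps that of Nfatc4, a calcium-regulated transcription factor, by 5114 bases. This and the overlaps given below are those of RefSeq. The methods name an Ensembl annotation for the counts, in which the overlaps were not looked at. Nfatc4 was measured at 1.21 to 2.44 CPM in Sham, 2.73 to 4.74 in Model and 1.35 to 2.09 in rt-PA+Acu. In rt-PA it was 11.9, 1.58 and 9 CPM, and the order of these libraries was the same as for Ripk3 (20.6, 10.4 and 11.9 CPM). In Sham, Model and rt-PA+Acu the order was not the same. The 1.58 CPM of rt-PA replicate 2 lay within the Sham range of Nfatc4, while Ripk3 in that library was at 10.4 CPM. The part of the overlap in the Ripk3 counts was not tested, and the strand setting used in counting was not given.

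Ripk1 encodes the kinase that receives death receptor signals and recruits Ripk3. It was measured at 23.6, 18.3 and 19.3 CPM in Sham, 26.8, 28.5 and 28.4 in Model, 39.1, 29.5 and 28.3 in rt-PA, and 19.6, 17.9 and 23.5 in rt-PA+Acu. Sham and rt-PA+Acu overlapped, and Model and rt-PA lay above both without overlap. Ripk1 was 1.37-fold higher in Model than in Sham (log2 0.46, SE 0.13, adjusted p = 0.0195) and fell 1.59-fold from rt-PA to rt-PA+Acu (log2 -0.67, SE 0.18, adjusted p = 0.025). The first call ended without Sham replicate 2, Sham replicate 3 or Model replicate 2 (adjusted p = 0.0768, 0.0704 and 0.0593). The second ended without rt-PA replicate 1, rt-PA+Acu replicate 1 or rt-PA+Acu replicate 2 (adjusted p = 0.0804, 0.0756 and 0.0913). The rt-PA to Model difference was 0.21 (SE 0.15, adjusted p = 0.692) and the rt-PA+Acu to Sham difference was -0.01 (SE 0.16, adjusted p = 0.99). The Ripk1 span overlaps that of Serpinb6a, on the opposite strand, by 357 bases. Serpinb6a was at 16.8 to 20.9 CPM in Sham, 25.1 to 35.2 in Model, 32.1 to 60.2 in rt-PA and 17.6 to 23.4 in rt-PA+Acu. The part of this overlap in the Ripk1 counts was not tested.

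Mlkl, the membrane-breaking end of the pathway, had few counts, from 6 to 37 per library. In Sham it was at 0.483, 2.37 and 0.611 CPM (6, 31 and 7 counts), and in Model at 1.37, 2.2 and 0.826 CPM (18, 26 and 10 counts). In rt-PA it was at 2.57, 1.87 and 1.84 CPM and in rt-PA+Acu at 0.59, 0.96 and 1.12 CPM. Sham replicate 2 exceeded every library except rt-PA replicate 1, and the Sham and Model groups overlapped fully. Mlkl fell 2.33-fold from rt-PA to rt-PA+Acu (log2 -1.22, SE 0.39, adjusted p = 0.0438), with no overlap between the groups. This call held in 4 of 13 settings and failed with DESeq2 (adjusted p = 0.0567) and when genes with low counts were kept (adjusted p = 0.0626). It failed too with all 12 libraries in 1 fit (adjusted p = 0.109), with the replicate block (adjusted p = 0.0942), without each rt-PA library in turn, and without rt-PA+Acu replicate 1 or 2 (adjusted p from 0.074 to 0.15). The Model to Sham value was 0.33 (SE 0.66, adjusted p = 0.692) and moved to 1.41 without Sham replicate 2.

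Casp8 encodes the initiator caspase of the death receptors. It was measured at 1.53, 2.52 and 2.53 CPM in Sham and at 9.39, 6.1 and 2.81 in Model, where replicate 3, the library with Sham-like Rpl39, was barely above Sham. In rt-PA it was at 9.64, 5.46 and 6.93 CPM and in rt-PA+Acu at 1.52, 1.4 and 4.03 CPM. Casp8 was 2.79-fold higher in Model than in Sham (log2 1.48, SE 0.45, adjusted p = 0.023). Without Model replicate 3 the value was 1.83 and the call was kept, whereas leaving out any other of the 6 libraries ended it, with adjusted p from 0.0527 to 0.0832.

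Casp8 fell 3.13-fold between rt-PA and rt-PA+Acu (log2 -1.64, SE 0.45, adjusted p = 0.0273). The groups did not overlap, as for 51.1% of all genes. The call ended without rt-PA replicate 1, rt-PA replicate 3, rt-PA+Acu replicate 1 or rt-PA+Acu replicate 2 (adjusted p = 0.0922, 0.0648, 0.083 and 0.0884). Casp8 in rt-PA against Model differed by 0.27 (SE 0.43, adjusted p = 0.881) and in rt-PA+Acu against Sham by 0.09 (SE 0.48, adjusted p = 0.928). In the RefSeq annotation the Casp8 span shares 118 bases with Cflar, the gene of cFLIP. Cflar was at 14.3 to 16.1 CPM in Sham and 16.3 to 25.3 in rt-PA+Acu. It was at 101, 52.7 and 44.7 CPM in Model and 72.3, 47.6 and 62.5 in rt-PA. Within Model and within rt-PA the libraries had the same order for Cflar and Casp8, and within Sham and within rt-PA+Acu they did not. The part of the overlap in the Casp8 counts was not tested.

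Casp9 encodes the initiator caspase of the apoptosome. It was measured at 61.3, 55.9 and 58.9 CPM in Sham, 51, 48.4 and 49.6 in Model, 37, 39.2 and 45.1 in rt-PA, and 42.6, 40.2 and 37.2 in rt-PA+Acu. All 9 libraries with a clot were below all 3 Sham libraries, and the 2 rt-PA-treated groups overlapped and lay below Model. In Model against Sham the log2 difference was -0.23 (SE 0.09, adjusted p = 0.0512), just short of the threshold, and it passed only with RLE scaling (log2 -0.25, adjusted p = 0.042). Relative to Sham, rt-PA+Acu had Casp9 1.47-fold lower (log2 -0.56, SE 0.1, adjusted p = 0.02), and the groups did not overlap, as for 30.8% of genes. This call ended with the replicate block (adjusted p = 0.062), without any Sham library and without rt-PA+Acu replicate 2 (adjusted p from 0.0597 to 0.0926).

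Comparisons of Casp9 between rt-PA and Sham and between rt-PA+Acu and Model were added after its values were seen. In rt-PA against Sham it was lower by the same amount (log2 -0.56, SE 0.1, adjusted p = 0.00253, where 27.3% of all genes were called lower), and all 13 settings kept this call. Between rt-PA+Acu and Model the value was -0.31 (SE 0.11, adjusted p = 0.0563, where 16.9% of all genes were called lower), and it passed with library size alone and with all 12 libraries in 1 fit (adjusted p = 0.0362 and 0.0227). The rt-PA+Acu to rt-PA value was -0.02 (SE 0.12, adjusted p = 0.93), and the rt-PA to Model value was -0.29 (SE 0.11, adjusted p = 0.436). Summed neuronal markers were also lower outside Sham in part of the libraries. They were at 6940 to 7670 CPM in Sham, 5860 to 6020 in Model, 4670 to 5800 in rt-PA, and 8060, 8190 and 5700 in rt-PA+Acu. The 7 markers did not move together. In Model against Sham 4 were called lower and 1, Gad1, was called higher (1.83-fold, adjusted p = 0.000876). The part of neurons in the Casp9 values was not tested. The Casp9 span shares 442 bases with Cela2a, which had 0 to 3 counts per library.

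Casp4, the inflammatory caspase that senses intracellular lipopolysaccharide, was at 4.51, 3.82 and 3.84 CPM in Sham and 7.63, 8.04 and 10.2 in Model. It was at 7.22, 9.41 and 10.7 CPM in rt-PA and at 4.3, 2.01 and 8.36 in rt-PA+Acu. Casp4 was 2.13-fold higher in Model than in Sham (log2 1.09, SE 0.21, adjusted p = 0.00314), and every one of 13 settings kept this call. From rt-PA to rt-PA+Acu the log2 difference was -0.88 (SE 0.46, adjusted p = 0.17) with overlapping groups. Without rt-PA+Acu replicate 3 it was -1.52 (adjusted p = 0.0184). The rt-PA to Model value was 0.08 (SE 0.22, adjusted p = 0.941) and the rt-PA+Acu to Sham value was 0.28 (SE 0.46, adjusted p = 0.756).

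Casp12, a caspase linked to endoplasmic reticulum stress, had few counts, from 6 to 76 per library. It was at 2.26, 1.45 and 2.62 CPM in Sham, 2.14, 1.86 and 2.56 in Model, 5.27, 2.44 and 4.65 in rt-PA, and 1.01, 0.524 and 3.21 in rt-PA+Acu. Sham and Model overlapped, and no pair of groups was apart. No comparison called it, with log2 values of 0.06 (SE 0.35, adjusted p = 0.889) in Model against Sham and 0.91 (SE 0.36, adjusted p = 0.46) in rt-PA against Model. The rt-PA+Acu to rt-PA value was -1.35 (SE 0.63, adjusted p = 0.131) and became -2.4 (adjusted p = 0.0121) without rt-PA+Acu replicate 3.

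Gsdmd, the pore-forming effector of pyroptosis, was the member with the narrowest spread beside Casp9. It was at 4.51, 5.12 and 4.1 CPM in Sham, 4.43, 4.91 and 6.36 in Model, 8.05, 5.53 and 5.46 in rt-PA, and 5.14, 5.06 and 6.19 in rt-PA+Acu. Every rt-PA library was above every Sham library, a difference that did not pass in the added comparison of rt-PA with Sham (log2 0.45, SE 0.24, adjusted p = 0.141), and the other pairs of groups overlapped. The log2 differences were 0.2 (SE 0.24, adjusted p = 0.514) in Model against Sham, 0.28 (SE 0.26, adjusted p = 0.779) in rt-PA against Model, -0.21 (SE 0.24, adjusted p = 0.527) in rt-PA+Acu against rt-PA and 0.25 (SE 0.22, adjusted p = 0.528) in rt-PA+Acu against Sham.

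**Figure D2:**
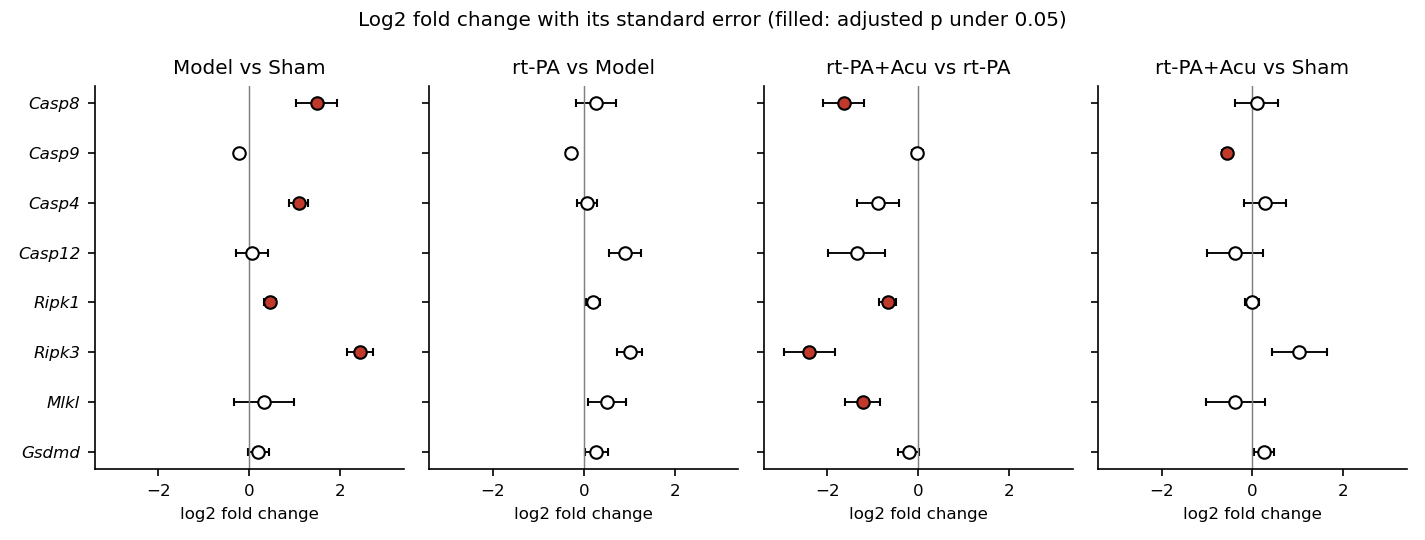
Log2 fold change of the 8 genes with its SE in each of the 4 comparisons, from the edgeR quasi-likelihood test, with filled points for an adjusted p under 0.05. Ripk3 had the largest values in Model against Sham (2.43) and in rt-PA+Acu against rt-PA (-2.39).

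Model against Sham and rt-PA+Acu against rt-PA share no library. Casp8, Ripk1 and Ripk3 were called higher in the first and lower in the second, 3 of 8 members, whereas 1821 of 12753 genes (14.3%) were. This is 75% of the members called higher and 75% of those called lower, against 51.9% and 80.8% over all genes, so that most genes that fell in rt-PA+Acu had also been called higher in Model.

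Single libraries weighed on these values. Of its group, rt-PA replicate 1 was the highest for 6 of the 8 genes, as it was for 36.2% of 13296 genes, and rt-PA+Acu replicate 3 was the highest for 7 of 8, against 38% of genes. Summed monocyte and macrophage markers (8 genes, Ms4a7 at 0 in Sham) were 59.3 to 81.3 CPM in Sham, 168 to 243 in Model, 252 to 467 in rt-PA and 38.9 to 54 in rt-PA+Acu. They were highest in rt-PA replicate 1, at 467 CPM, as were neutrophil markers (7 genes, Mpo at 0 in every library), at 81.8 CPM against 3.73 to 5.24 in rt-PA+Acu. The other rt-PA libraries had neutrophil sums of 34.7 and 14.9 CPM. Neutrophil markers were 7.26 to 11.8 CPM in Sham and 4.96 to 17 in Model. Summed microglial markers (7 genes) were between 431 and 605 CPM in the 12 libraries, a sum that held changes in both directions. In Model against Sham 2 of them rose, among them Itgam (5.47-fold), and 5 fell, among them P2ry12 (12.5-fold), while in rt-PA+Acu against rt-PA 2 rose, among them P2ry12 (8.32-fold), and 2 fell. Summed endothelial markers (6 of 7 listed) were 160 to 204 CPM in Sham, 221 to 433 in Model, 296 to 427 in rt-PA, with replicate 1 the highest of that group, and 102 to 111 in rt-PA+Acu. All 6 endothelial markers fell in rt-PA+Acu against rt-PA. In Model against Sham only 1 of the 6 was called, Kdr, which was 7.18-fold higher. There 4 of the 6 had higher and 2 lower values. The order of the groups for the monocyte and macrophage sum was that of Ripk3, apart from the first pair. In that pair the markers disagreed. Mean Lyz2 was 54.2 CPM in Sham and 25 in rt-PA+Acu, while mean Cd14 was 0.826 and 4.55. Of 6 markers tested in rt-PA+Acu against Sham, 3 had higher and 3 lower values. In Model against Sham, 3 of 7 tested were called higher and 0 lower. The part of monocytes and macrophages, neutrophils, microglia and endothelial cells in the values of Ripk1, Ripk3, Mlkl, Casp8 and Casp4 was not tested. rt-PA+Acu replicate 3 also had the lowest summed oligodendrocyte markers of its group (3210 CPM, the others 21100 and 8750). Its astrocyte sum was the highest of the group (7040 CPM), but Gfap alone made up a large part of these sums. Gfap was at 2180 to 4380 CPM in that group, and the other astrocyte markers were not summed without it.

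**Figure D3:**
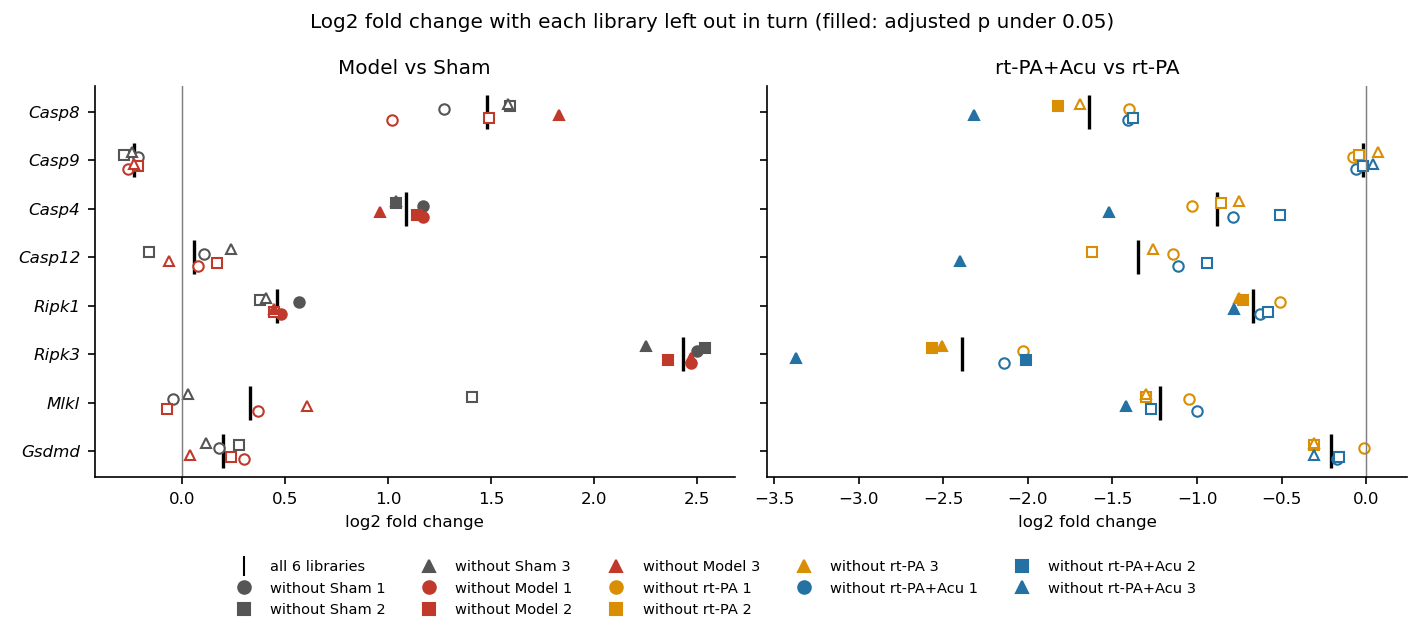
Log2 fold change of the 8 genes with each library left out in turn, for Model against Sham (left panel) and rt-PA+Acu against rt-PA (right panel). A vertical tick marks the value from all 6 libraries, and filled symbols have an adjusted p under 0.05. In rt-PA+Acu against rt-PA, Casp12 spans -2.4 to -0.94 and Casp4 spans -1.52 to -0.51, while Casp9 stays between -0.08 and 0.07.

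Genes that act around the members were grouped into 4 lists. Over all genes tested, 27.3% were called higher and 26.6% lower in Model against Sham, and 17% higher and 17.7% lower in rt-PA+Acu against rt-PA, and each list's count is to be read against these shares. Of 15 tested death receptor and complex II partners, 9 rose and 2 fell in Model against Sham, with a median log2 fold change of 0.58. Without Sham replicate 2 the median was 0.98 and 6 rose. Tnfrsf1a, the TNF receptor, rose 3.43-fold (log2 1.78, SE 0.14, adjusted p = 3.79e-05), and Tnfaip3, which removes ubiquitin from RIPK1, rose 3.83-fold (log2 1.94, SE 0.19, adjusted p = 0.00011). Cyld, another enzyme that removes ubiquitin, fell 2.46-fold (log2 -1.3, SE 0.11, adjusted p = 4.85e-05), and the ubiquitin ligase Birc2 rose 2.09-fold (log2 1.07, SE 0.11, adjusted p = 0.000114). With acupuncture added to rt-PA, 7 of the 15 fell and 1 rose, with a median of -0.95. Those that fell included Birc2 (log2 -1.12, adjusted p = 0.00118), Tnfaip3 (log2 -1.67, adjusted p = 0.00195) and Cflar (log2 -1.59, adjusted p = 0.00277), and Cyld was the gene that rose (log2 1.22, adjusted p = 0.00389).

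Of 15 genes around the apoptosome, 5 rose and 1 fell in Model against Sham (median 0.27), which is near the share of all genes called higher and below that called lower. Without Sham replicate 1, 3 rose and 0 fell, and without Model replicate 1 the median was 0.13. Bid, the caspase-8 substrate that reaches the mitochondrion, rose 5.73-fold (log2 2.52, SE 0.2, adjusted p = 4.07e-05). From rt-PA to rt-PA+Acu, 3 fell and 1 rose (median -0.04). Without rt-PA+Acu replicate 2, 1 fell, and 0 rose when any library other than rt-PA+Acu replicate 3 was left out. Bid fell 3.12-fold (log2 -1.64, adjusted p = 0.0195) and Diablo, an inhibitor of IAP proteins, fell 1.71-fold (log2 -0.77, adjusted p = 0.0175), while the protease Htra2 rose (log2 0.37, adjusted p = 0.0352).

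Of 13 inflammasome and pyroptosis genes, 3 rose and 3 fell in Model against Sham (median 0.48, and 0.12 without Model replicate 3), each direction near the share over all genes. Ninj1, which ruptures the membrane at the end of pyroptosis, rose 1.79-fold (log2 0.84, SE 0.15, adjusted p = 0.00214), and Gsdme, another gasdermin, fell 2.3-fold (log2 -1.2, SE 0.22, adjusted p = 0.00237). Il1b, the cytokine released through gasdermin pores, rose too (adjusted p = 0.00817) from 6, 0 and 0 counts in Sham. Between rt-PA and rt-PA+Acu, 5 of 12 fell and 1 rose (median -0.75). Those that fell numbered 2 without rt-PA+Acu replicate 2, 3 without rt-PA replicate 1, without rt-PA+Acu replicate 1 or with the replicate block, and 7 of 13 without rt-PA+Acu replicate 3. Il1b fell from 4.35 to 15.1 CPM in rt-PA to 0.224 to 0.337 CPM in rt-PA+Acu, where no library had more than 4 counts (adjusted p = 0.00163). Ninj1 fell 2.22-fold (log2 -1.15, adjusted p = 0.0135) and Gsdme was the gene that rose (log2 0.99, adjusted p = 0.00905). Casp1, the caspase of the inflammasome, did not pass in Model against Sham (log2 -0.13, adjusted p = 0.729) or in rt-PA+Acu against rt-PA (log2 -0.87, adjusted p = 0.121).

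Of 8 tested inputs and regulators of necroptosis, 3 rose and 3 fell in Model against Sham (median 0.17, and 0.1 without Model replicate 1). Pgam5, a mitochondrial phosphatase, rose 1.72-fold (log2 0.78, SE 0.09, adjusted p = 0.000285) and Ppm1b, a phosphatase that acts on RIPK3, fell 1.61-fold (log2 -0.69, SE 0.09, adjusted p = 0.000324). The receptor kinase Tyro3 fell 2.75-fold (log2 -1.46, SE 0.15, adjusted p = 0.000142). Relative to rt-PA, rt-PA+Acu had 2 higher and 1 lower. No gene of the list was called without rt-PA replicate 3, rt-PA+Acu replicate 1 or rt-PA+Acu replicate 2. Without rt-PA replicate 1 there were 0 higher and 1 lower, and without rt-PA replicate 2 there were 1 higher and 0 lower. Without rt-PA+Acu replicate 3 there were 2 higher and 2 lower. Tyro3 (log2 1.03, adjusted p = 0.0169) and Ppm1b (log2 0.43, adjusted p = 0.0347) rose and Tlr4 fell 2.29-fold (log2 -1.2, SE 0.3, adjusted p = 0.021), with a median of -0.03. Zbp1, the nucleic acid sensor that can engage RIPK3 directly, had 0 to 4 counts per library and was not tested.

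**Figure D4:**
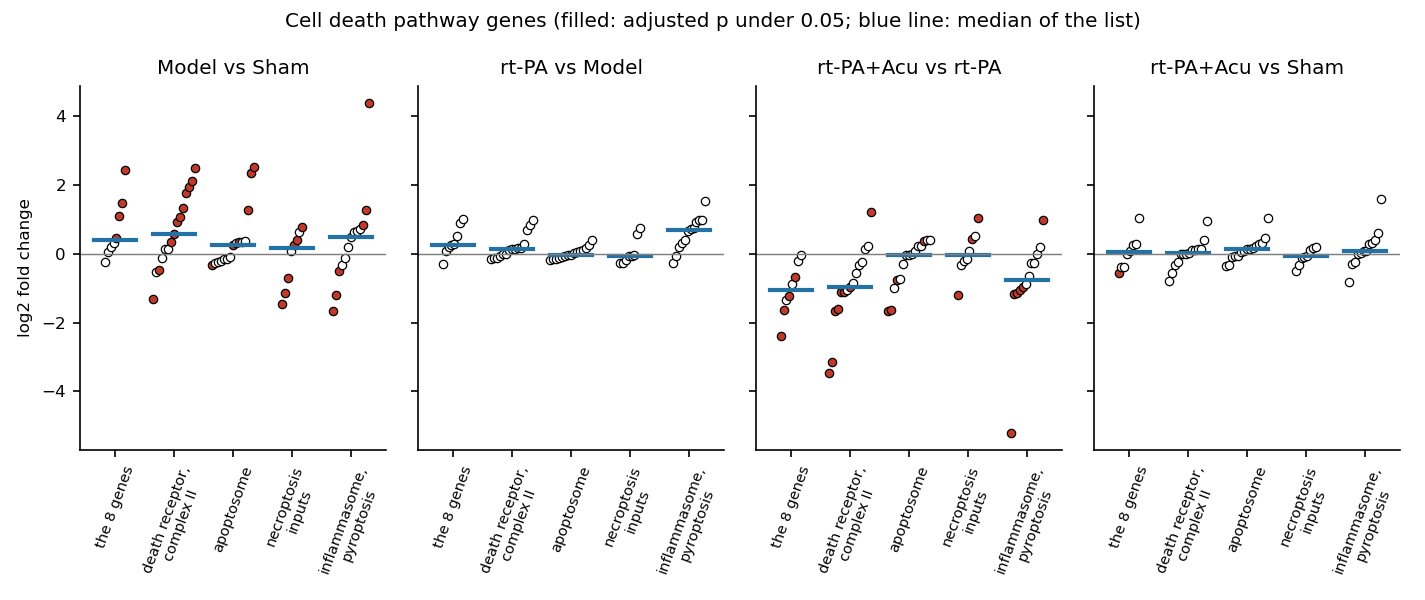
Log2 fold change (vertical axis) of the 8 genes and of every tested gene of the 4 lists in each of the 4 comparisons, with filled points for an adjusted p under 0.05 and a blue line for the median of each list. The death receptor list had its median at 0.58 in Model against Sham and at -0.95 in rt-PA+Acu against rt-PA.

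No gene of the 4 lists passed in rt-PA against Model, where edgeR called 0 genes, 1284 genes (9.92%) had an unadjusted p under 0.05 and DESeq2 called 189 (1.49%). Of the members, Casp9, Casp12 and Ripk3 were under 0.05 unadjusted there in edgeR, and DESeq2 called none. In the lists the medians were 0.15, -0.04, 0.68 and -0.07 in the order given above. The smallest p values of the inflammasome list were those of Gbp2 (log2 0.94, adjusted p = 0.36) and Nek7 (log2 0.4, adjusted p = 0.366). For rt-PA+Acu against Sham edgeR called none of the lists' genes either, with medians of 0.02, 0.13, 0.08 and -0.07, while DESeq2 called 1 death receptor and 1 inflammasome gene higher.

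By level pattern over the 12 libraries, the genes closest to each member were found from the root mean square difference of log2 CPM centred on each gene's mean. Casp9 was nearest to Iqsec3 (0.099), Fkbp2 (0.104) and Epb41l1 (0.107), while its own SD over the libraries was 0.25. Ripk1 was closest to Rpl10a (0.093), Rpf1 (0.104) and Rpl4 (0.119), with an SD of 0.34. Gsdmd was nearest to Slc12a4 (0.113), Secisbp2 (0.122) and Ppp1r14b (0.123), with an SD of 0.26. The genes with larger swings were less closely matched. Ripk3, with an SD of 1.46, was nearest to Adamts7 (0.288), Sbno2 (0.396) and Emp1 (0.403). Casp4 was nearest to Mreg (0.238) and Gpr65 (0.275), and Casp8 to Fmo5 (0.27), Eme1 (0.323) and Tent5a (0.339). Casp12 was nearest to Eva1c (0.412), Etv6 (0.435) and Atp10d (0.446), and Mlkl to Sgms2 (0.372), Stk32a (0.402) and Lck (0.408). Among the members themselves Ripk1 and Gsdmd were the closest pair (0.258) and Casp9 and Ripk3 the farthest (1.535).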

How the data were processed

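Messenger RNA of rat cerebral cortex was sequenced as 150-base read pairs by the authors, whose deposited table holds raw read counts per gene. The submitters' processing notes name STAR 2.7.10a, featureCounts 2.0.1, Salmon 1.9.0 and mRatBN7.2, and the methods an Ensembl rat annotation. The release, the strand setting and any use of the molecular identifiers in the adapters were not given in the sources used here. The SE and SD values include the spread between libraries.

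Each pair of groups was fitted over all genes with edgeR 4.0.16 in R 4.3.3 (TMM, filterByExpr, quasi-likelihood test, Benjamini-Hochberg adjustment, threshold 0.05). The 13 settings were that fit, DESeq2 1.42.0, RLE scaling, library size alone, no filter, all 12 libraries in 1 fit, a replicate block and each library left out. No source states that each library came from a separate rat, so p-values measure the spread between these libraries, which may be technical. No replicates were duplicates by a chi-square test of their counts. The edgeR fit was also run on simulated counts in which 200 genes were changed. In Model against Sham 6951 genes were called, so that run does not show how the fit behaves with so many changes. The members and gene lists were chosen with earlier results of these data known. Named genes were the members and, per list and comparison, up to 4 called genes with the smallest p at a mean of at least 1 CPM, or the 2 smallest if none was called. The text gives a selection of these. It adds Rpl39, Casp1, Zbp1, Nfatc4, Serpinb6a, Cela2a, P2ry12, Itgam, Gfap, Lyz2, Cd14, Gad1 and Kdr, chosen after their values were seen. For each member the 3 nearest genes were named, except that 1 of those of Casp4 is not reported here. Ticam1, Flt1, Hbb, Hba-a1, Hba-a2 and Alas2 were not analysed here. Figures were drawn with matplotlib 3.10.9.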

Additional observations from a re-analysis of the deposited data

How the results depend on the processing

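Each group had 3 libraries, and counts per library were 6 to 37 for Mlkl and 6 to 76 for Casp12. In rt-PA against Model, 189 genes were called with DESeq2 and 3 with all 12 libraries in 1 fit, and leaving out 1 library gave 0 to 3. In rt-PA+Acu against Sham, DESeq2 called 1435 genes and leaving out 1 library gave 112 to 856 genes and 0 to 1 members (0 without any Sham library or rt-PA+Acu replicate 2). In rt-PA+Acu against rt-PA, leaving out 1 library gave 2496 to 5417 genes and 0 to 6 members, with 0 without rt-PA replicate 1 or rt-PA+Acu replicate 1, 1 without rt-PA+Acu replicate 2, 2 without rt-PA replicate 3 and 6 without rt-PA+Acu replicate 3. In Model against Sham it gave 5825 to 7528 genes and 2 to 4 members (2 without Sham replicate 2, Sham replicate 3 or Model replicate 2). The replicate numbers did not pair the libraries (correlations of same-numbered deviations from -0.121 to 0.144). With the replicate block, 6731, 0, 3694 and 289 genes were called in the 4 comparisons (Model against Sham, rt-PA against Model, rt-PA+Acu against rt-PA, rt-PA+Acu against Sham) and 4, 0, 3 and 0 members.

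Directions turned only for values short of the threshold. In Model against Sham, leaving out 1 library gave -0.07 to 1.41 for Mlkl and -0.16 to 0.24 for Casp12. In rt-PA against Model it gave -0.08 to 0.72 for Casp8 and -0.06 to 0.22 for Casp4, and in rt-PA+Acu against rt-PA -0.08 to 0.07 for Casp9. In rt-PA+Acu against Sham it gave -0.6 to 0.35 for Casp8, -0.13 to 0.11 for Ripk1, -0.75 to 0.7 for Mlkl, -1.45 to 0.02 for Casp12 and -0.37 to 0.65 for Casp4. There Ripk1 was 0.03 with library size alone and Casp8 was -0.03 with the replicate block. The cause was not tested.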
